A study of Rattus norvegicus with 24 samples.

Results

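The thrombospondins, tenascin C and related matricellular genes were followed in rat tibialis anterior muscle during daily resistance training. The 10 members (Thbs1, Thbs2, Thbs3, Thbs4, Tnc, Postn, Sparc, Fn1, Spp1 and Mfap4) were chosen by gene symbol, and the 16 transcripts that carry those symbols were summed per gene. They are 10 of the 15273 genes in the transcript table.

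Matricellular proteins are secreted into the extracellular matrix, where they bind cell-surface receptors, collagens, growth factors and proteases and so alter how cells attach and respond, rather than serving mainly as scaffold. Most are sparse in resting adult tissue and more abundant during development, repair and mechanical loading. In skeletal muscle they are found in the connective tissue between fibres, around vessels and at the junction of muscle and tendon.

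Adult male Wistar rats carried an implanted pulse generator that stimulated the left hind limb once a day, with current at the common peroneal nerve spilling over to the tibial nerve so that the plantarflexors resisted the dorsiflexors. The trained groups were left muscles after 2, 10, 20 or 30 days of training, with 3 animals at each time, and all muscles were taken an hour after the last bout. The control group was the unstimulated right muscle of the same 12 animals, which also carried the implant, and no sham-operated muscle was sequenced. RNA came from muscle freed of excess connective tissue and with its mid-belly removed for histology, and polyadenylated RNA was sequenced. Side of the body and training cannot be told apart in this design, and neither can the last bout and the days of training before it.

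Values are TPM (transcript abundance relative to the library total, per length) as deposited, summed per gene and rescaled between libraries so that the typical transcript has the same level in each. Being per length, levels of different genes can be set side by side. Every deposited library sums to the same total, so the depth of each library cannot be read from the values. In bulk tissue, more cells of a type and more RNA per cell cannot be told apart. The muscle fibre genes Acta1, Ckm, Tnnt3, Mylpf, Mb and Myh4 were all detected, with summed levels of 80170 to 92110 in the 12 contralateral muscles and of 62290 to 102000 in the 12 trained muscles, higher in the trained muscle of 3 of 12 animals.

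Each trained group of 3 was compared with the same 12 contralateral muscles in a limma fit over 11196 genes, so the 4 comparisons share their controls. A gene was called when its p, adjusted over all genes by the Benjamini-Hochberg method, was under 0.05, and log2 changes are differences in log2(value + 1). For genes near a level of 1 or below, the added 1 makes these differences smaller than the log of the ratio of means. All 10 members passed the filter of at least 1 in at least 3 muscles, but Thbs3 passed it through 3 trained muscles alone and Tnc through 7 trained muscles alone. No contralateral muscle reached 1 for either gene, so both had to be higher in trained muscle to be tested at all.

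Of the 10 members, 9 were higher at 2 days, against 15.4% of all genes tested. At 10 days 9 were higher, against 15.6%, at 20 days 7 were higher, against 11.7%, and at 30 days 6 were higher, against 11.1%. Called lower were 0 members at each time, against 13.5%, 13.3%, 9.64% and 9.46% of all genes in that order of times, and at an unadjusted p under 0.05 limma also gave 0 members lower. Thbs2 and Spp1, with 1 and 2 contralateral muscles at 1 or more, also passed the filter only with the help of trained muscles. Of the 6 members that pass it on contralateral muscles alone (Thbs1, Thbs4, Postn, Sparc, Fn1 and Mfap4), 6, 6, 6 and 5 were higher. The trained muscle was above the contralateral muscle of the same animal in 12 of 12 animals for 6 members (Thbs1, Thbs2, Postn, Sparc, Fn1 and Mfap4), as for 8.45% of all genes. Thbs1, Postn, Sparc, Fn1 and Mfap4 were called higher at all 4 times, as were 5.24% of the genes tested. With animals paired against the same day's contralateral muscles, Tnc lost the call at 10 days (adjusted p = 0.0686). Thbs2 (0.234) and Mfap4 (0.18) lost it at 30 days in that fit, so Mfap4 was then not called at all 4 times. Single muscles moved these counts: without trained replicate 2 the 2-day count was 6 and the 20-day count 4, without trained replicate 1 the 10-day count was 7, and without trained replicate 1 or 3 the 30-day count was 4. The median log2 change of the members was 1.31, 1.49, 1.13 and 1.00 at the 4 times in order, beside medians over all genes of -0.01, -0.03, -0.03 and -0.01.

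**Figure D1:**
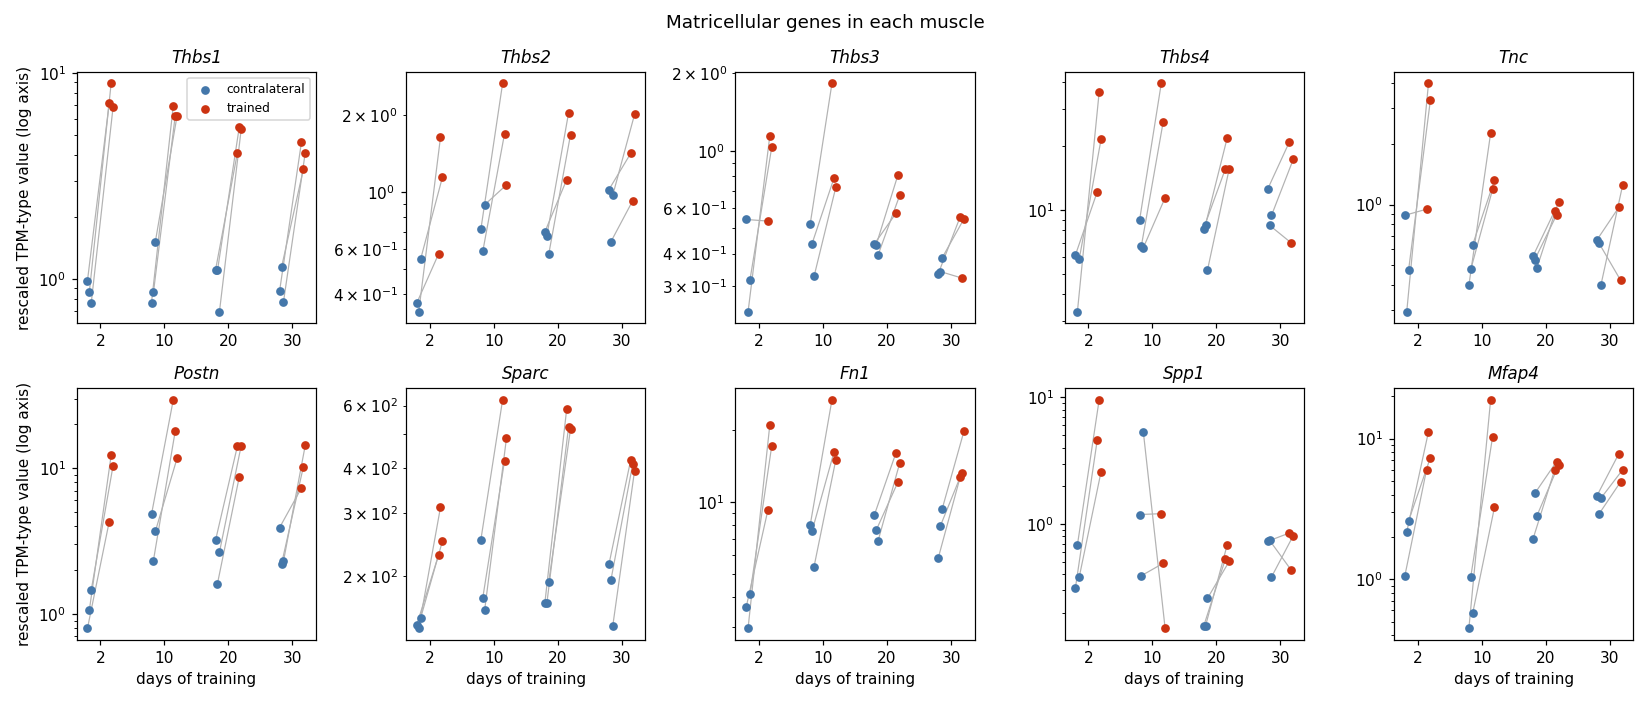
Rescaled TPM (log axis) of the 10 genes in each of the 24 muscles against days of training, with contralateral muscles in blue, trained muscles in red and a grey line joining the muscles of each animal. Thbs1 in the trained muscles lies between 3.40 and 8.90, above every contralateral muscle (0.690 to 1.52), while Spp1 stands high at 2 days and overlaps the contralateral muscles later.

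Thbs1 (ENSRNOG00000045829, chromosome 3) encodes thrombospondin 1, a trimeric protein that binds CD36 and CD47 and can activate latent transforming growth factor beta. In the 12 contralateral muscles its level ran from 0.690 through a median of 0.869 to 1.52. Trained muscles had 7.13, 8.90 and 6.82 at 2 days and 6.93, 6.18 and 6.20 at 10 days. At 20 days they held 4.08, 5.46 and 5.32, and at 30 days 4.59, 3.40 and 4.10. Every trained muscle lay above every contralateral muscle, which at 2, 10, 20 and 30 days also held for 8.57%, 10.0%, 8.23% and 7.48% of all genes tested. The mean rose from 0.952 ± 0.232 (SD, n = 12) to 7.62 ± 1.13 (SD, n = 3) at 2 days, a ratio of means of 8.0, and stood at 4.03 ± 0.601 (SD, n = 3) at 30 days, a ratio of 4.23. The Thbs1 log2 change was 2.14 at 2 days (SE 0.11, adjusted p = 7.69e-13), 1.94 at 10 days (5.52e-12), 1.61 at 20 days (2.33e-10) and 1.37 at 30 days (5.02e-09), higher in 12 of 12 animals. These calls held in each of the 25 alternative fits, where the highest adjusted p at any time was 3.32e-04.

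Thbs2 (ENSRNOG00000010529, chromosome 1) encodes thrombospondin 2, the other trimeric thrombospondin, known for its part in collagen fibril assembly and in clearing matrix metalloproteinase 2. Contralateral levels were low, from 0.340 through a median of 0.657 to 1.03. In trained muscle the levels were 0.573, 1.64 and 1.14 at 2 days and 2.67, 1.70 and 1.07 at 10 days. They held 1.12, 2.05 and 1.68 at 20 days and 1.42, 0.926 and 2.02 at 30 days. All 3 trained muscles exceeded the contralateral range at 10 and 20 days, whereas replicate 1 at 2 days and replicate 2 at 30 days fell inside it. The Thbs2 log2 change was 0.32 at 2 days (SE 0.165, adjusted p = 0.145), which did not pass, then 0.72 at 10 days (0.00166), 0.64 at 20 days (0.00609) and 0.54 at 30 days (0.0202), with the trained muscle higher in 12 of 12 animals.

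Single muscles decided several of the Thbs2 calls. Without replicate 1 the 2-day change of 0.52 passed (adjusted p = 0.0328, in a range over the 25 alternatives of 0.0328 to 0.672). Without trained replicate 1 the 10-day change was 0.51 and missed the threshold (0.05 after rounding, range 5.87e-04 to 0.27), and without trained replicate 2 the 20-day change was 0.53 and missed it (0.0691, range 0.00395 to 0.219). At 30 days the call was lost without trained replicate 1 (0.54, adjusted p = 0.0663), without trained replicate 3 (0.38, 0.195), and on the values as deposited without rescaling (0.42, 0.0693). It was also lost against the 3 contralateral muscles of the same day (0.37, 0.286) and with animals paired on top of that (0.37, 0.234). The 25 alternatives at 30 days ran from 0.0148 to 0.656.

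Thbs3 (ENSRNOG00000059903, chromosome 2) encodes thrombospondin 3, a pentameric family member, and was the least abundant of the 10 in contralateral muscle. Contralateral levels ran from 0.238 through a median of 0.390 to 0.542. After training the muscles held 0.534, 1.14 and 1.03 at 2 days and 1.83, 0.781 and 0.722 at 10 days. They held 0.573, 0.806 and 0.675 at 20 days and 0.554, 0.321 and 0.544 at 30 days. Trained and contralateral muscles were apart at 10 and 20 days and overlapped at 2 days, through replicate 1, and at 30 days, through replicate 2. Thbs3 rose at 2 days by 0.44 (SE 0.117, adjusted p = 0.00657) and at 10 days by 0.56 (7.26e-04), while 0.28 at 20 days (0.0992) and 0.08 at 30 days (0.682) did not pass. The 2-day call was lost without trained replicate 2 (0.35, 0.102) or replicate 3 (0.38, 0.0585), in a range over 25 alternatives of 0.00121 to 0.407. The 10-day call was lost with both muscles of replicate 1 left out and the same day's contralateral muscles as controls (0.34, 0.19). The trained muscle was higher in 10 of 12 animals, the exceptions being replicate 1 at 2 days (0.534 against 0.542) and replicate 2 at 30 days. At 20 days the gene passed with 0.1 in place of 1 added before the log (0.69, 0.0364, range 0.0364 to 0.619).

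Thbs4 (ENSRNOG00000012471, chromosome 2) encodes thrombospondin 4, a pentameric protein found in tendon, in muscle and at the junction between them, where it takes part in matrix assembly and attachment of fibres. The contralateral muscles spanned 3.31 through a median of 7.48 to 12.5. The trained muscles held 12.2, 35.8 and 21.5 at 2 days and 39.5, 26 and 11.4 at 10 days. They held 15.6, 21.9 and 15.6 at 20 days and 20.9, 6.99 and 17.3 at 30 days. At 20 days the groups were apart, and at each other time a single trained muscle lay within the contralateral range. Thbs4 rose by 1.44 at 2 days (SE 0.327, adjusted p = 0.00175), by 1.54 at 10 days (8.60e-04) and by 1.18 at 20 days (0.0112), while 0.85 at 30 days (0.0673) did not pass. The trained muscle was higher in 11 of 12 animals, the exception being replicate 2 at 30 days.

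Single muscles decided the Thbs4 call at 3 of the 4 times. At 2 days it was lost without trained replicate 2 (1.07, 0.056, range over 26 alternatives 5.41e-04 to 0.0941). At 20 days it was lost without trained replicate 2 (1.02, 0.0817), with the leading transcript alone (1.08, 0.0509) and against the same day's contralateral muscles (1.18, 0.0505), in a range of 0.00705 to 0.2. With animals paired on the same day's controls the 20-day call was kept (1.18, 0.0307). At 30 days the gene passed without trained replicate 2 (1.29, 0.0176) and without contralateral 30-day replicate 1 (0.92, 0.0445), in a range of 0.0176 to 0.867. The 10-day call was lost only with both muscles of replicate 1 or 2 left out and the same day's contralateral muscles as controls (highest adjusted p = 0.103).

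Tnc (ENSRNOG00000058645, chromosome 5) encodes tenascin C, a many-armed glycoprotein that modulates adhesion to fibronectin and is known for its induction by load at the muscle and tendon junction. Without training, levels ran from 0.294 through a median of 0.509 to 0.884. Trained muscles had 0.949, 3.98 and 3.29 at 2 days and 2.26, 1.19 and 1.32 at 10 days. They held 0.931, 0.889 and 1.03 at 20 days and 0.968, 0.421 and 1.25 at 30 days. All 9 trained muscles of the first 3 times lay above the contralateral range, some of them barely, and at 30 days replicate 2 fell inside it. The mean rose from 0.537 ± 0.156 (SD, n = 12) to 2.74 ± 1.59 (SD, n = 3) at 2 days, a ratio of 5.10. The Tnc log2 change was 1.18 at 2 days (SE 0.182, adjusted p = 3.03e-05) and 0.74 at 10 days (0.00348), whereas 0.35 at 20 days (0.187) and 0.27 at 30 days (0.322) did not pass. The trained muscle was higher in 11 of 12 animals. The 2-day call was lost only with both muscles of replicate 2 left out and the same day's contralateral muscles as controls (0.79, 0.0885). The 10-day call was lost without trained replicate 1 (0.56, 0.0649) and with animals paired against the same day's contralateral muscles (0.76, 0.0686), in a range over 25 alternatives of 0.00205 to 0.307.

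Postn (ENSRNOG00000012660, chromosome 2) encodes periostin, a fasciclin-domain protein of fibroblasts that binds collagen I, tenascin C and integrins and promotes collagen cross-linking. Contralateral levels ran from 0.794 through a median of 2.31 to 4.82. In trained muscle the levels were 4.29, 12.2 and 10.4 at 2 days and 29.5, 17.9 and 11.7 at 10 days. They held 14.1, 8.70 and 14.3 at 20 days and 7.30, 10.2 and 14.4 at 30 days. The 2-day replicate 1 was the only trained muscle within the contralateral range. The mean rose from 2.50 ± 1.22 (SD, n = 12) to 19.7 ± 8.99 (SD, n = 3) at 10 days, a ratio of 7.87. The Postn log2 change was 1.49 at 2 days (SE 0.313, adjusted p = 8.43e-04), 2.55 at 10 days (1.15e-06), 1.98 at 20 days (5.58e-05) and 1.77 at 30 days (2.61e-04), with the trained muscle higher in 12 of 12 animals. Against the same day's contralateral muscles it was 2.15 at 2 days (1.21e-04) and 2.11 at 10 days (1.53e-04). With the leading transcript alone the 2-day change was 0.72 and did not pass (0.141, range over 25 alternatives 9.76e-05 to 0.141), and the 30-day call was lost with both muscles of replicate 2 or 3 left out and the same day's contralateral muscles as controls (highest adjusted p = 0.0892).

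Sparc (ENSRNOG00000012840, chromosome 10) encodes a collagen-binding glycoprotein, also called osteonectin, that aids procollagen handling and fibril formation, and it was by far the most abundant member. Its contralateral mean of 176.0 stood at percentile 97.3 of the genes tested. The contralateral muscles spanned 142.6 through a median of 168.0 to 252.4. After training the muscles held 228.9, 311.4 and 250.2 at 2 days and 622.7, 420.4 and 486.1 at 10 days. They held 586.7, 523.6 and 516.0 at 20 days and 423.0, 410.7 and 394.7 at 30 days. At 2 days replicates 1 and 3 lay within the contralateral range, and from 10 days on all trained muscles lay well above it. The Sparc log2 change was 0.59 at 2 days (SE 0.143, adjusted p = 0.0032), 1.53 at 10 days (2.10e-08), 1.64 at 20 days (1.32e-08) and 1.23 at 30 days (1.39e-06), with the trained muscle higher in 12 of 12 animals. The 2-day call was lost without trained replicate 2 (0.46, 0.0691, range over 26 alternatives 5.29e-04 to 0.0691).

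Spp1 (ENSRNOG00000043451, chromosome 14) encodes osteopontin, a phosphorylated integrin and CD44 ligand that macrophages and myoblasts secrete in damaged muscle. Without training, levels ran from 0.156 through a median of 0.388 to 5.29, the last in replicate 3 of the 10-day animals, and the next highest was 1.19. The trained muscles held 4.59, 9.54 and 2.59 at 2 days and 1.21, 0.490 and 0.150 at 10 days. They held 0.528, 0.689 and 0.508 at 20 days and 0.850, 0.432 and 0.810 at 30 days. The 3 muscles trained for 2 days exceeded all contralateral muscles but that 10-day replicate, which 1 of them exceeded, and from 10 days on the groups overlapped throughout. Spp1 rose at 2 days by 1.85 (SE 0.346, adjusted p = 2.52e-04, higher in 3 of 3 animals). At 10, 20 and 30 days its log2 change was -0.08 (0.888), -0.07 (0.915) and 0.03 (0.966), and the sign of each of these differed between alternatives. The trained muscle was higher in 2 of 3, 3 of 3 and 2 of 3 animals at those times, and against the same day's contralateral muscles the changes at 10 and 20 days were -0.78 (0.175) and 0.40 (0.537, or 0.505 with animals paired), and neither passed. Without the high contralateral replicate the 10-day and 20-day changes were 0.09 and 0.11.

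Fn1 (ENSRNOG00000014288, chromosome 9) encodes fibronectin, the adhesive glycoprotein that cells assemble into fibrils through integrin alpha 5 beta 1 and on which tenascin C and collagen are laid down. Contralateral levels ran from 2.95 through a median of 7.22 to 9.34. Trained muscles had 9.24, 21.1 and 17.2 at 2 days and 26.8, 16.1 and 15 at 10 days. They held 16.1, 12.1 and 14.6 at 20 days and 12.7, 13.3 and 19.8 at 30 days. The 2-day replicate 1 lay just inside the contralateral range and the other 11 trained muscles above it. The Fn1 log2 change was 1.16 at 2 days (SE 0.257, adjusted p = 0.00145), 1.45 at 10 days (1.29e-04), 1.08 at 20 days (0.00342) and 1.15 at 30 days (0.00238), with the trained muscle higher in 12 of 12 animals. Against the same day's contralateral muscles the changes were 1.82, 1.32, 0.80 and 0.90 over the 4 times (highest adjusted p = 0.0365). With the leading transcript alone the 2-day change was 0.76 and did not pass (0.0655, range over 26 alternatives 1.38e-05 to 0.0655), and the calls at 20 and 30 days were lost with both muscles of any replicate left out and the same day's contralateral muscles as controls (highest adjusted p = 0.183 and 0.118).

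Mfap4 (ENSRNOG00000002382, chromosome 10) encodes microfibril-associated protein 4, which binds elastin, fibrillin and collagen in elastic fibres. The contralateral muscles spanned 0.447 through a median of 2.38 to 4.08, and the 3 contralateral muscles of the 10-day animals were low, at 0.447, 1.04 and 0.574. In trained muscle the levels were 6.02, 11.2 and 7.34 at 2 days and 18.9, 10.3 and 3.25 at 10 days. They held 6.01, 6.87 and 6.47 at 20 days and 7.79, 4.94 and 6.0 at 30 days. The 10-day replicate 3 was the only trained muscle inside the contralateral range. The Mfap4 log2 change was 1.57 at 2 days (SE 0.367, adjusted p = 0.00228), 1.71 at 10 days (9.94e-04), 1.30 at 20 days (0.0121) and 1.25 at 30 days (0.0172), with the trained muscle higher in 12 of 12 animals.

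Against the same day's contralateral muscles the Mfap4 change was 1.64 at 2 days (0.00279) and 2.56 at 10 days (3.94e-05). The 2 later calls depended on the controls and on single muscles. At 20 days the call was lost against the same day's contralateral muscles (0.95, 0.0848) and without trained replicate 2 (1.26, 0.0569), in a range over 25 alternatives of 0.00847 to 0.35. With animals paired on the same day's controls the 20-day call was kept (0.95, 0.0449). At 30 days it was lost without trained replicate 1 (1.10, 0.0931) or replicate 3 (1.26, 0.0619), against the same day's contralateral muscles (0.67, 0.279) and with animals paired as well (0.67, 0.18), in a range of 0.0122 to 0.516.

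**Figure D2:**
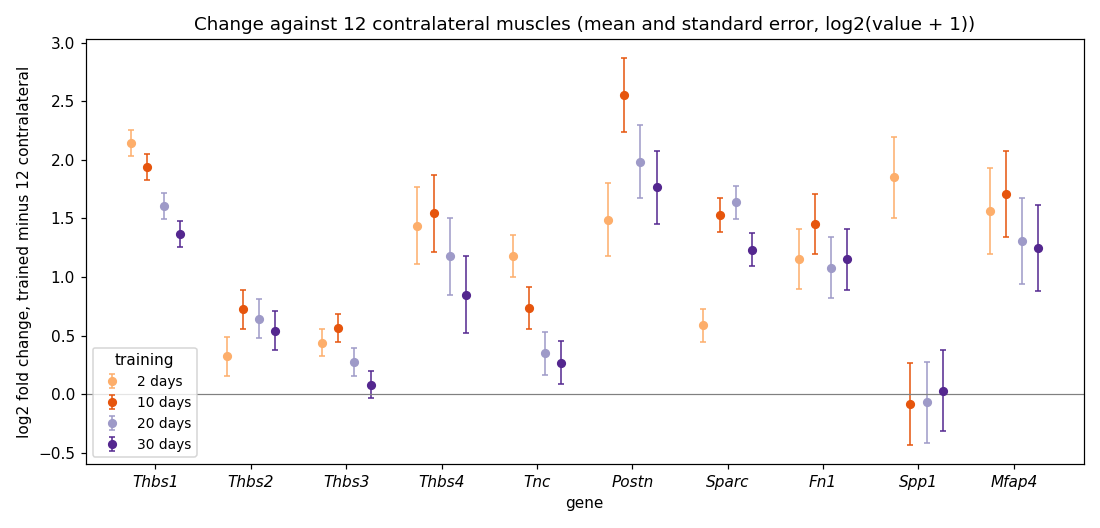
Log2 change (trained minus the 12 contralateral muscles, on log2 of the value plus 1) of each gene at 2, 10, 20 and 30 days, where points are fitted means over 3 trained muscles and bars are standard errors. Thbs1 runs from 2.14 at 2 days to 1.37 at 30 days, Sparc from 0.59 to 1.23 with 1.64 at 20 days, and Spp1 is near 0 after 2 days.

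Whether the members differed between training times was tested among the 4 trained groups themselves, setting trained muscles against each other. These are muscles of different animals, and each animal's own contralateral muscle does not enter the differences. In the limma F test 4 of 10 members passed, against 12% of all genes: Sparc (adjusted p = 0.00135), Thbs1 (0.00223), Spp1 (0.00673) and Tnc (0.0266). Sparc was higher at 10 than at 2 days by 0.94 (SE 0.181, adjusted p = 0.00696), and Spp1 fell by 1.94 between those times (SE 0.438, 0.023). Those were 2 of 10 members called, against 1.93% of all genes. Contralateral means of Sparc were 147.1, 195.6, 176.2 and 185.3 at 2, 10, 20 and 30 days. Against the same day's contralateral muscles its log2 changes were 0.825, 1.39, 1.62 and 1.16. Whether these same-day changes differ between times was not tested. Between 10 and 20 days limma called 0 members, against 0.17% of all genes. At an unadjusted p under 0.05 it gave 1 member, Thbs1 with -0.33, beside 1050 of the 11196 genes tested. Between 20 and 30 days it again called 0, against 0.0357%, and gave 1 unadjusted, Sparc with -0.40, beside 763 genes.

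Across the whole span, from 2 to 30 days, 4 members differed, against 15% of all genes. Thbs1 was lower at 30 than at 2 days, with a log2 difference of -0.78 (SE 0.14, adjusted p = 6.52e-04). Tnc had a difference of -0.91 (SE 0.231, 0.00914) and Spp1 one of -1.82 (SE 0.438, 0.00641), while Sparc was higher at 30 days by 0.65 (SE 0.181, 0.0174). Thbs3 (-0.36, 0.105), Thbs4 (-0.59, 0.367), Thbs2 (0.22, 0.519), Postn (0.28, 0.687), Mfap4 (-0.32, 0.692) and Fn1 (-0.01, 0.992) did not pass. Postn stood 1.07 higher at 10 than at 2 days without passing (SE 0.395, adjusted p = 0.18). Times at which Thbs2, Thbs4 or Thbs3 passed and times at which they did not are therefore not shown to differ.

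Single muscles mattered for 3 of these F tests. Without 2-day replicate 2 the count of members that passed was 2. The Tnc call was lost without 2-day replicate 2 (adjusted p = 0.173), without 2-day replicate 3 (0.145), without 30-day replicate 2 (0.0619) and with 0.1 added before the log (0.062). The Spp1 call was lost without 2-day replicate 2 (0.103). Thbs3, with 0.11 in the full fit, passed without 2-day replicate 1 (0.038), without 10-day replicate 3 (0.0482) and on the values as deposited (0.0331). Without 1 trained muscle at a time, Thbs1 ran from 0.00238 to 0.0133, Sparc from 0.00109 to 0.0122, Tnc from 6.79e-05 to 0.173, Spp1 from 0.00681 to 0.103 and Thbs3 from 0.038 to 0.295.

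The contralateral muscles were themselves compared over the 4 times. In the limma F test 0 members passed after adjustment, against 0.152% of all genes. At an unadjusted p under 0.05 were 4 members, beside 1012 of the 11196 genes tested: Fn1 (0.00307), Mfap4 (0.00391), Postn (0.0236) and Spp1 (0.0376). Their adjusted p were 0.334, 0.35, 0.474 and 0.523.

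Rescaling mattered most at 30 days. On the values as deposited the median log2 change of all genes at 30 days was -0.18, a shift of over 0.1, and the share of called genes that were higher was 74.5%, 75.4%, 61.0% and 20.0% at 2, 10, 20 and 30 days, in place of 53.4%, 53.9%, 54.9% and 54.0% after rescaling. Relative to that median, the 30-day changes as deposited were 1.75 for Postn, 1.37 for Thbs1, 1.24 for Mfap4, 1.19 for Sparc, 1.12 for Fn1, 0.83 for Thbs4, 0.60 for Thbs2, 0.36 for Tnc, 0.19 for Thbs3 and 0.13 for Spp1. The median of the 10 members at 30 days was 0.97 above the median of all genes as deposited and 1.01 above it after rescaling.

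The order of the members by level was led by Sparc in all groups. In contralateral muscle Thbs4 (mean 7.50 ± 2.37 SD) and Fn1 (6.49 ± 2.10) followed and did not differ beyond their spread, then Postn (2.50 ± 1.22) and Mfap4 (2.27 ± 1.29), which overlapped as well. The remaining members lay under 1 on average: Thbs1 (0.952 ± 0.232), Spp1 (0.890 ± 1.42), Thbs2 (0.670 ± 0.214), Tnc (0.537 ± 0.156) and Thbs3 (0.392 ± 0.0876). Thbs1 moved from percentile 9.8 of tested genes in contralateral muscle to 58.8 in muscle trained for 2 days, and Postn from 30.1 to 79.9 in muscle trained for 10 days.

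Thbs2, Thbs3, Tnc and Sparc have a single deposited transcript each and the other members a pair. Thbs1-201 carried 97.3% of Thbs1 in contralateral muscle and 84.5% ± 12.8 (SD, n = 3) after 30 days. Postn-201 carried 65.5% ± 20.9 (SD, n = 12) in contralateral muscle and 39.8% ± 16.9 (SD, n = 3) after 2 days. Fn1-201 carried 31.1% ± 14.8 (SD, n = 12) of Fn1 in contralateral muscle. Its share was 47.7% ± 7.51 (SD, n = 3) in muscle trained for 2 days, and for 30 days of training it was 25.5% ± 5.37 (SD, n = 3). Thbs4-201 carried 58.8% in contralateral muscle and between 58.6% and 69.5% on average in the trained groups, and Mfap4-201 carried 94.6% or more on average in each group. Spp1-201 carried 56.5% ± 38.2 (SD, n = 12) in contralateral muscle and 97.7% ± 3.69 (SD, n = 3) after 2 days. These shares were not tested. For Postn and Fn1 each trained group overlapped the contralateral range, while the Fn1-201 shares at 2 days lay above those of the later trained groups.

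For the gene lists that follow, the shares of all genes tested were 15.4%, 15.6%, 11.7% and 11.1% higher and 13.5%, 13.3%, 9.64% and 9.46% lower over the 4 times, and on the values as deposited they were 5.74% higher and 23% lower at 30 days. Of 23 other matricellular genes listed, 20 were in the table and 15 were tested. At 2 days 8 rose and 1 fell, at 10 days 8 rose and 0 fell, at 20 days 9 rose and 0 fell, and at 30 days 9 rose and 1 fell, where the values as deposited gave 4 and 1. Ccn5, counted as a rise at all 4 times, had a contralateral mean of 0.404 and passed the filter through trained muscles alone. It therefore had to be higher there to be tested, and the filter could favour other list genes of low contralateral level likewise. At an unadjusted p under 0.05, limma gave 0 lower at 10 and at 20 days as well. Their median log2 changes were 0.65, 0.59, 0.64 and 0.57, beside -0.01, -0.03, -0.03 and -0.01 for all genes. Lgals3, the galectin abundant in macrophages, averaged 4.98 in contralateral muscle and 21.5, 23.6, 20.3 and 19 at the 4 times, with log2 changes of 1.87, 2.04, 1.84 and 1.75 (highest adjusted p = 1.35e-07). Ccn1, an integrin ligand induced early by load, averaged 19.6 in contralateral muscle and 115.1 at 2 days, a log2 change of 2.22 (0.00185), and its later values of 0.59, -0.98 and -0.80 did not pass. Ccn2, connective tissue growth factor, averaged 7.39 and then 28.1, 31.3, 15.6 and 16 (highest adjusted p = 0.0192). Smoc2, a relative of Sparc, averaged 5.81 and then 10.8, 23.6, 22 and 17.2, with its largest log2 change of 1.78 at 20 days (4.34e-07). Lgals1 averaged 159.7 and then 282.5, 446.1, 254.1 and 236.9 (highest adjusted p = 0.00656). The gene that fell was Angptl4, an inhibitor of lipoprotein lipase, named after its values were seen, with a log2 change of -1.20 at 2 days (0.00217) and -0.84 at 30 days (0.0327). Tnn, Smoc1, Spock1, Spock3 and Fbln7 were below the filter.

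Of 25 genes listed as receptors, 23 were in the table and 18 were tested. The list is wider than receptors for the members, as Itga7 binds laminin, which is not a member. Over the 4 times limma called 9, 10, 7 and 8 higher and 0 lower (0, 0, 1 and 0 lower at an unadjusted p under 0.05), where the values as deposited gave 4 higher and 1 lower at 30 days. Median log2 changes were 0.25, 0.52, 0.33 and 0.32. Itga3, counted at 10, 20 and 30 days, had a contralateral mean of 0.663 ± 0.156 (SD, n = 12) and passed the filter only with the help of trained muscles. Itga5, the fibronectin receptor subunit, averaged 2.14 in contralateral muscle and 9.83, 9.50, 6.96 and 5.75 at the 4 times (highest adjusted p = 1.08e-06). Itga7, the laminin-binding integrin of muscle fibres, averaged 11.7 and then 41.4, 26.5, 17 and 11.9, with log2 changes of 1.67, 1.09, 0.51 and 0.03, of which the last did not pass (0.942). Sdc4, the syndecan of focal adhesions, averaged 10.0 and then 24.6, 29.5, 29.6 and 23.3 (highest adjusted p = 0.00346). Cd44, a receptor for hyaluronan and osteopontin, averaged 2.26 and then 9.77, 8.72, 5.72 and 5.25 (0.00336). Itgb1, the common integrin partner, rose by 1.02 at both 2 and 10 days (5.59e-06 and 4.57e-06), and its 0.35 and 0.34 at 20 and 30 days did not pass (0.0774 and 0.0843). Among receptors that bind thrombospondins, Cd36 is not in the table, and the log2 changes of Cd47 (lowest adjusted p = 0.573) and Cacna2d1 (0.147) did not pass. Lrp1 rose by 0.60, 0.44 and 0.52 at 10, 20 and 30 days (highest adjusted p = 0.0459), of which only the 10-day call was kept with animals paired against the same day's contralateral muscles (0.0101, 0.286 and 0.0805). Calr rose by 0.28 at 2 days (0.0271, and 0.213 with animals paired).

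The 17 listed elastic fibre and fibronectin matrix partners gave 15 tested genes, of which limma called 10, 13, 12 and 9 higher over the 4 times and 0 lower (also 0 at an unadjusted p under 0.05), with 10, 15, 12 and 8 higher on the values as deposited. Their median log2 changes were 0.78, 1.01, 0.88 and 0.64. Bgn, the small proteoglycan biglycan, averaged 5.64 in contralateral muscle and 25.6, 43.4, 29.0 and 22.8 at the 4 times, with log2 changes of 1.99, 2.74, 2.20 and 1.86 (highest adjusted p = 2.34e-08). Vcan, the large proteoglycan versican, averaged 0.935 and then 5.57, 3.22, 1.92 and 1.65, where the last did not pass (0.0594). Lox, the enzyme that cross-links collagen and elastin, averaged 1.11 and then 4.65, 3.56, 3.10 and 3.13 (highest adjusted p = 0.00303). Fgl2 averaged 3.57 and then 7.02, 10.5, 10.9 and 10.4 (0.0102), and Mfap5, a microfibril component, 5.02 and then 14.9, 14.4, 10.9 and 10.7 (0.0084).

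All 20 genes listed for the transforming growth factor beta pathway were in the table and 19 were tested. Of these limma called 5, 7, 5 and 3 higher and 0, 1, 1 and 2 lower over the 4 times (1, 2, 2 and 4 lower at an unadjusted p under 0.05), and at 30 days the values as deposited gave 2 higher and 6 lower, where 23% of all genes were lower. At 30 days that was 15.8% higher and 10.5% lower, beside 11.1% and 9.46% of all genes. Median log2 changes were 0.15, 0.17, 0.03 and 0.02. Tgfb1, the ligand itself, averaged 2.83 in contralateral muscle and 6.04, 7.82, 6.32 and 4.97 at the 4 times (highest adjusted p = 0.00274). Tgfb2 rose at 2 days by 0.94 (3.84e-05) and at 10 days by 0.65 (0.00166), and Lrrc32, which holds latent ligand at the cell surface, by 0.57 (0.0029) and 0.79 (9.82e-05). Smad3, the transducer, fell by 0.63 at 10 days (6.10e-05), by 0.45 at 20 days (0.0026) and by 0.54 at 30 days (6.91e-04).

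Of 16 proteases and inhibitors that act on the members, 15 were in the table and 11 tested, with 3, 8, 9 and 9 called higher by limma and 0 lower over the 4 times (also 0 lower at an unadjusted p under 0.05), and 5 higher at 30 days on the values as deposited. Median log2 changes were 0.34, 0.87, 0.65 and 0.59. Timp1, an inhibitor of metalloproteinases, averaged 1.56 in contralateral muscle and 14.7, 8.94, 6.06 and 3.87 at the 4 times (highest adjusted p = 0.0204). Ctsk, a collagen-degrading cathepsin, averaged 2.24 and then 3.54, 8.29, 5.81 and 4.59 (0.0325). Mmp2, gelatinase A, rose by 1.06, 1.29 and 1.03 at 10, 20 and 30 days (highest adjusted p = 3.98e-04), and Mmp14, its activator, by 0.97, 1.03 and 0.76 (0.0145). At 2 days the log2 changes were 0.06 (0.852) and 0.32 (0.279), and both passed there with animals paired against the same day's contralateral muscles (0.59, 0.0157 and 0.86, 0.00526). Adamts1, which cleaves versican and thrombospondins, averaged 5.79 and then 12.9, 13.3, 9.59 and 9.02 (0.0423).

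Of 19 genes for load-responsive transcription, 18 were in the table and 17 tested, and 9, 10, 8 and 6 rose over the 4 times. Egr2 and Fosl1, with contralateral means of 0.0993 and 0.266, passed the filter through trained muscles alone. Both therefore had to be higher in trained muscle to be tested. Egr2 is in the count at all 4 times and Fosl1 at 2, 10 and 20 days. Called lower by limma were 0 (2, 0, 0 and 1 at an unadjusted p under 0.05), and on the values as deposited 1 was lower at 30 days. Median log2 changes were 0.38, 0.81, 0.48 and 0.22. Ankrd1, a stretch-responsive sarcomere and nuclear protein, averaged 10.5 in contralateral muscle and 1564, 282.4, 45.9 and 53.6 at the 4 times (highest adjusted p = 0.00226). Atf3, a stress-induced factor, averaged 5.89 and then 284.9, 344.5, 154.4 and 121.5 (2.67e-06). Egr1 averaged 4.28 and then 139.8, 94.2, 77.9 and 48.7 (1.46e-09), Fos 10.4 and then 202.0, 120.9, 84.7 and 56.0 (5.36e-05), and Junb 7.61 and then 33.5, 32.3, 54.5 and 22.2 (0.00152).

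With animals paired against the same day's contralateral muscles, some list counts differed. Called higher over the 4 times were then 7, 8, 8 and 6 other matricellular genes, 8, 10, 6 and 5 receptors, 13, 11, 11 and 7 matrix partners, 4, 7, 4 and 3 genes of the transforming growth factor beta pathway, 7, 9, 7 and 8 proteases and inhibitors and 10, 11, 8 and 6 genes of load-responsive transcription. Called lower were 1 other matricellular gene at each time (Vtn at 2 days with -0.56, adjusted p = 0.0229, then Angptl4 with -0.89, -0.75 and -0.87, highest adjusted p = 0.0172) and Smad3 at 10, 20 and 30 days (highest adjusted p = 0.0243). Of the genes named above, Angptl4 (adjusted p = 0.0834) and Lrrc32 (0.0565) lost the call at 2 days, and Itga7 (0.117), Vcan (0.143) and Adamts1 (0.0614) at 20 days. At 30 days Ccn2 (0.058), Cd44 (0.114), Mfap5 (0.119), Lox (0.081) and Mmp14 (0.0821) lost it.

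Markers of cells other than fibres moved with the members, and their part in the members' results was not tested. All 11 macrophage markers were tested, and 9, 10, 11 and 10 were higher over the 4 times (11, 10, 11 and 10 with animals paired). Trem2, counted at 2, 10 and 20 days, had a contralateral mean of 0.264 and passed the filter through trained muscles alone. It therefore had to be higher there to be tested. The summed level of the 11 markers ran from 18.9 through a median of 31.6 to 44.1 in contralateral muscle. In trained muscle it was 83.7, 195.8 and 132.8 at 2 days, 147.2, 122.7 and 85.3 at 10 days, 97.2, 105.7 and 108.7 at 20 days and 92.0, 117.6 and 104.9 at 30 days. Every trained muscle was above every contralateral muscle, and Lyz2 was the most abundant gene, with a contralateral mean of 13.7. The general leukocyte markers Ptprc and Itgam were below the filter.

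Fibroblast markers showed a similar picture. Of 8 markers 7 were in the table (Col1a2 was not), and 4, 6, 6 and 6 of them were higher over the 4 times (6, 6, 5 and 5 with animals paired). Dcn was the most abundant of them in contralateral muscle, with a mean of 64.4, and their sum there ran from 91.1 through a median of 196.8 to 281.3. Trained muscles held 322.6, 520.9 and 438.0 at 2 days, 1024, 635.8 and 542.9 at 10 days, 635.3, 604.8 and 658.4 at 20 days and 392.0, 451.1 and 453.3 at 30 days. All 12 lay above the contralateral range. In trained muscle the collagen genes made up much of the sum. Col3a1 averaged 56.9 in contralateral muscle and 194.5, 348.8, 278.8 and 167.9 at the 4 times, and Col1a1 32.9 and then 110.7, 210.3, 153.4 and 74.9. Dcn averaged 66.6 at 2 days, a log2 change of 0.12 that did not pass (adjusted p = 0.781). Pdgfra, a surface marker of fibroblasts, averaged 1.39 and then 2.19, 3.44, 2.74 and 2.35 (highest adjusted p = 0.0434). Pi16 did not pass at any time against the 12 contralateral muscles (lowest adjusted p = 0.203). With animals paired against the same day's contralateral muscles the Pdgfra calls at 20 and 30 days were lost (0.0523 and 0.177), and Dcn passed at 2 days (0.73, 0.00696). Dcn is also among the matrix partners.

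Thbs4 and Tnc are also expressed in tendon and at its junction with muscle, whose markers were read for that reason. Of 6 tendon markers 5 were tested, and limma called 0, 1, 2 and 0 over the 4 times (0, 1, 4 and 0 at an unadjusted p under 0.05). Their sum ran from 10.5 through 14.3 to 25 in contralateral muscle. In trained muscle it was 18.1, 29.9 and 13.3 at 2 days, 41.2, 27.7 and 19.1 at 10 days, 24.6, 48.1 and 26.2 at 20 days and 28.3, 7.95 and 24 at 30 days. Trained and contralateral muscles overlapped at 2, 10, 20 and 30 days, but the sum was higher in the trained muscle of 11 of 12 animals, the exception being replicate 2 at 30 days. With animals paired against the same day's contralateral muscles 1 marker was called at 10 days and 3 at 20 days. Among the markers Scx was the most abundant, with a contralateral mean of 5.79. Of 4 junction markers limma called 2, 2, 1 and 1 higher and 1, 0, 0 and 0 lower over the 4 times. Col22a1 fell at 2 days (-0.72, adjusted p = 0.00539), and Tigd4 did not pass at any time (lowest adjusted p = 0.148). Xirp2, the most abundant in contralateral muscle, rose by 1.36 at 2 days (4.07e-05) and 1.46 at 10 days (1.44e-05). At 2 days Ankrd1 averaged 1564 and Xirp2 679.9, beside 0.423 for Col22a1 and 1.05 for Tigd4. The summed junction markers, made up mainly of Xirp2 and Ankrd1, ran from 192.7 through 284.2 to 320.2 in contralateral muscle. After training the muscles held 812.9, 3501 and 2422 at 2 days, 1352, 1267 and 503.5 at 10 days, 402.0, 314.1 and 362.9 at 20 days and 319.4, 386.4 and 455.6 at 30 days. No marker of these lists was at 0 in all muscles.

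Within animals, the trained minus contralateral differences of the members were set beside those of 5865 genes with a mean of at least 5, over 12 animals that share training times, as a description only. Tnc and Fn1 varied most alike among the members (Pearson r = 0.912), followed by Thbs3 and Tnc (0.888) and by Thbs1 and Thbs4 (0.884). Sparc stood apart, with r of -0.516 with Spp1 and -0.427 with Thbs1. The genes most like Thbs1 were Sort1 (0.893), Fbn1 (0.893) and Thbs4 (0.884), and those most like Thbs4 were the collagen genes Col5a2 (0.919), Col5a3 (0.89) and Col1a1 (0.889). Thbs3 was closest to AABR07068316.1 (0.933), Acvr1 (0.897) and Emp1 (0.896), and Spp1 to AABR07026112.1 (0.871), AABR07038948.2 (0.858) and Sf3b3 (0.818). Tnc was closest to Anxa2 (0.917), Col5a2 (0.914) and Fn1 (0.912), and Fn1 to Ano6 (0.964), Ahnak (0.946) and Fermt2 (0.944). Sparc was closest to Serping1 (0.952), Cav1 (0.883) and Lrg1 (0.881). For Mfap4 the closest were Plcd4 (0.939), Mef2c (0.905) and Lama2 (0.902), and for Postn they were Eef1a1 (0.855), Tmx4 (0.829) and Csrp3 (0.815). Thbs2 was closest to Dapk2 (0.818), Ccn2 (0.8) and Thbs4 (0.773).

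The promoters of the members were also read, whether or not the genes moved together. Of the 10 members 7 matched an entry of the RefSeq promoter table (build GRCr8), while Thbs2, Fn1 and Mfap4 had none. The 250 bases before each start were searched on both strands for 5 motifs. The motif GGAATG, the core read by TEAD factors, is in Thbs1, Thbs4 and Sparc and in 12.1% of all 33469 promoters. The motif CCAGACA, which holds the Smad core, is in Thbs4, Tnc and Sparc and in 4.7%. None of the 7 holds TGANTCA, the site of AP-1 factors (6.3% of promoters), or TGACGTCA, the cyclic AMP response element (1.6%), or CACGTG, an E-box (5.6%). The 4 promoters with a match are printed 5′ to 3′ on the strand of the gene, with the matches in capitals. Thbs1 (chr3:125510000-125510249, plus strand) has GGAATG 47 bases before the start. Thbs4 (chr2:25760346-25760595, minus strand), Tnc (chr5:82476132-82476381, minus strand) and Sparc (chr10:40038817-40039066, minus strand) have their matches as the other strand reads, CATTCC for the former motif and TGTCTGG for the latter. A match is a description of letters, and binding was not measured.
Thbs1: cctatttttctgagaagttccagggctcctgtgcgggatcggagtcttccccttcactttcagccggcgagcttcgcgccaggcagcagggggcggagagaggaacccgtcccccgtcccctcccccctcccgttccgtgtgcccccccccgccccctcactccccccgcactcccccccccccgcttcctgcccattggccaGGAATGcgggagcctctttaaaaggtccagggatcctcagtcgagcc
Thbs4: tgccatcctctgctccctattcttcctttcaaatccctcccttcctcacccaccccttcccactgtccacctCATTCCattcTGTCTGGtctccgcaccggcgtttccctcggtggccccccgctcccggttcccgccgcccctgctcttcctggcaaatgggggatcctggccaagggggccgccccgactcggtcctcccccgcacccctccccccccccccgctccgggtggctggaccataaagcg
Tnc: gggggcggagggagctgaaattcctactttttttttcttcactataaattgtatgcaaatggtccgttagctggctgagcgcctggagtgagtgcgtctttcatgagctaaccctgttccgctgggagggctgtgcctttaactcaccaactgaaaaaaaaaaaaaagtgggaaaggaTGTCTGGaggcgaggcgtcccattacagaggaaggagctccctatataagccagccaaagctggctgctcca
Sparc: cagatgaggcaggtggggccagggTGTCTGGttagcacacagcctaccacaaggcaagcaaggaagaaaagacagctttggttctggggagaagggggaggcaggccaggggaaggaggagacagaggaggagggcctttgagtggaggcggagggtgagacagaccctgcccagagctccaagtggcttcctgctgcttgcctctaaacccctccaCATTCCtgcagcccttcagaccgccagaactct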

How the data were processed

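The authors aligned reads with STAR, quantified transcripts in Partek and deposited TPM values per transcript for 24 muscles. The deposited values were summed per gene symbol and divided by median-of-ratios factors (0.778 to 1.14, from 16230 transcripts above 0 in all muscles). Genes with at least 1 in at least 3 muscles (11196 of 15273) were fitted as log2(value + 1) with limma 3.58.1 (R 4.3.3) in 5 groups, and a Benjamini-Hochberg adjusted p under 0.05 was a call. Python 3.11.15, numpy 2.4.6, pandas 2.3.3 and matplotlib 3.10.9 were used, and the fit was tested on simulated data. TPM keeps no counts, so counting precision could not be computed from the deposited values. The labels pair the muscles by animal. With group means removed, the median correlation within an animal was 0.174, against -0.1 between animals of a day, and limma's block correlation was 0.172.

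The members and the gene lists were chosen with earlier results of these data known. Called list genes were named by largest absolute log2 change, at most 5 a list, and for each member the 3 genes of highest correlation. Alternatives were the values as deposited, 0.1 added before the log, no filter, a mean of at least 10, the leading transcript, the same day's contralateral muscles as controls, animals as a replicate block, adjusted p under 0.01 and leaving out muscles or animals. Leaving out single contralateral muscles was chosen after seeing the data. A deposited gene-level table and the authors' table of group comparisons were not used.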

Additional observations from a re-analysis of the deposited data

Results flagged for a closer look

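For 4 genes the level differed among the 4 trained groups in the test of that difference itself (limma F test, adjusted over all genes): Sparc (adjusted p = 0.00135), Thbs1 (0.00223), Spp1 (0.00673) and Tnc (0.0266). Sparc was lowest at 2 days, while Thbs1, Spp1 and Tnc were highest then.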

How the results depend on the processing

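Of 1052 values of the members' log2 changes under alternatives, 965 kept their direction and their side of the threshold, 64 kept direction but lost the call, 5 gained it and 18 changed sign. Thbs1 at all 4 times, Sparc and Fn1 at 10 days, Sparc at 20 and 30 days, Postn at 10 and 20 days, Mfap4 at 2 and 10 days and Spp1 at 2 days kept the call in every refitted alternative (25 or 26 each). With no filter all calls kept their side.

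Sign changes were all in Spp1, none of them called, and the cause was not tested. At 20 days its log2 change was 0.078 with 0.1 added before the log, 0.40 with time-matched controls (the same day's contralateral muscles), 0.011 with the replicate block and 0.40 with the replicate block and time-matched controls. At 30 days it was -0.047 on the values as deposited. Leaving out muscles or animals gave -1.22 to 0.14 at 10 days, -0.12 to 0.47 at 20 days and -0.094 to 0.24 at 30 days.

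With a mean of at least 10 required, fewer genes and only 3 members (Thbs4, Sparc and Fn1) were tested, and 3, 3, 3 and 2 of these members and 1654, 1420, 1064 and 1155 genes were called at 2, 10, 20 and 30 days, with 1 member in the F test among trained groups. At an adjusted p under 0.01 the genes called were 1958, 2050, 1420 and 1296. With time-matched controls, 3 in place of 12, they were 2007, 1589 and 1121 at 10, 20 and 30 days, and 1377 at 30 days with the replicate block as well. Leaving out single muscles, or an animal with time-matched controls (2 muscles against 2), gave 5 to 10, 5 to 9, 3 to 7 and 2 to 7 members and 797 to 3505, 968 to 3296, 714 to 2500 and 402 to 2440 genes over the 4 times. The lowest of each came with an animal left out, which leaves the fewest muscles, and only there did Tnc at 2 days, Thbs3 and Thbs4 at 10 days, Fn1 at 20 and 30 days and Postn at 30 days lose their calls, with highest adjusted p of 0.0885, 0.19, 0.103, 0.183, 0.118 and 0.0892. Without single trained muscles 2 to 5 members passed the F test among trained groups. Leaving out single contralateral muscles was added after seeing the data. The deposited values hold no counts, so no counting limit was computed for genes near a level of 1.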

Other observations

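Other cell types were covered by marker lists. Of 4 endothelial markers tested, 0, 3, 2 and 1 were higher and 1, 0, 0 and 0 lower over the 4 times, and Cdh5, the junctional cadherin of endothelium, averaged 15.6 in contralateral muscle and 23.2, 25.4 and 22.8 at 10, 20 and 30 days (highest adjusted p = 0.0162). With animals paired against the same day's contralateral muscles 0, 3, 2 and 0 were higher, the 30-day call of Cdh5 was lost (0.0721), and so was the 2-day fall, that of Kdr (-0.30, 0.079). Of 6 smooth muscle and pericyte markers, 3, 3, 2 and 2 were higher and 1, 0, 0 and 0 lower. Cspg4, a pericyte proteoglycan, averaged 1.05 in contralateral muscle and 2.04, 3.06, 2.28 and 2.16 at the 4 times (0.002), and Rgs5, another pericyte marker, fell by 0.68 at 2 days (0.0103). With animals paired 1, 3, 2 and 1 were higher, and the calls of Cspg4 at 30 days (0.0596) and of Rgs5 at 2 days (-0.36, 0.187) were lost. On the values as deposited no endothelial or smooth muscle marker was lower.

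Of 3 satellite cell markers tested, Myf5 rose by 0.54 at 2 days (0.00859) and by 0.40 at 10 days (0.0491), and Chodl fell by 0.75 at 2 days (0.00287). With animals paired the Chodl call was kept (-0.63, 0.0366), and the Myf5 calls were lost at 2 days (0.36, 0.088) and 10 days (0.42, 0.0533). Myf5 then passed at 30 days (0.48, 0.0466) and Cdh15 at 10 days (0.61, 0.0293). Pf4, the only platelet marker tested, rose by 0.83 at 20 days (0.0245) and by 1.12 at 30 days (0.00351), and with animals paired the 20-day call was lost (0.71, 0.0614) and the 30-day call kept (0.99, 0.0192). Of the 6 muscle fibre genes limma called 0, 3, 1 and 1 higher and 2, 3, 3 and 2 lower over the 4 times (0 higher at 2 days also at an unadjusted p under 0.05). With animals paired 0, 1, 1 and 1 were higher, the first also 0 at an unadjusted p under 0.05, and 1, 2, 1 and 1 lower. Mb, myoglobin, fell by 0.64 at 2 days (5.32e-04) and rose by 0.57, 0.74 and 0.65 at the later times (highest adjusted p = 0.00156), and it kept these calls with animals paired. Of the 3 adipocyte markers tested, limma called 0 at each time (2, 0, 0 and 1 at an unadjusted p under 0.05), and of the 3 red cell markers 0 (also 0 unadjusted).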
